A study of Mus musculus with 12 samples.

Results

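The motile cilium genes are the rows of the deposited count table named for the moving parts of the cilium. They were chosen by symbol alone: the axonemal dynein heavy, intermediate and light intermediate chains (Dnah, Dnaic, Dnali1), the radial spoke heads (Rsph), the sperm-associated antigens Spag6, Spag16 and Spag17, the cilia- and flagella-associated proteins (Cfap), the tektins (Tekt), the adenylate kinase Ak7 and the transcription factor Foxj1. The rule found 49 genes among 24421 in the table. Of these, 45 had at least 10 counts in 6 or more libraries and entered the test, which ran over 15111 genes, and 4 did not.

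Among the cells of the brain that carry motile cilia are ependymal cells, the multiciliated epithelium that lines the ventricles and moves the cerebrospinal fluid. The axoneme of such a cilium is a ring of microtubule doublets around a central pair of microtubules. Dynein arms on the doublets supply the force, and radial spokes and the central pair govern the beat. Foxj1 switches on most of the genes that build it, together with RFX factors, which bind a promoter element called the X-box. The striatum borders the lateral ventricle, so a striatal dissection can carry a strip of ependyma.

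Striatal RNA was sequenced from male mice of the inbred strain C57BL/6J, known for its high voluntary intake of ethanol. The varenicline group held 6 libraries from mice treated with 2 mg/kg varenicline, a partial agonist of nicotinic acetylcholine receptors, and the saline group held 6 libraries from mice given saline. The comparison asks what the drug changes in the striatal transcriptome of drinking mice. All mice drank 20% ethanol in the Drinking-in-the-Dark test, a limited-access session of 2 h that began 3 h into the dark phase, over 3 cycles of 2 days each. All of them, the varenicline mice included, received saline in the first cycle; groups were then formed with equal mean intake, and the assigned injection came 30 min before the second day's session in the last 2 cycles. Both striata were collected after the final session. Nothing in the labels states the ages, whether a library is 1 mouse or whether strand was recorded, and p-values measure only the spread between these libraries. Libraries are numbered in order of deposition.

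Library totals ran from 13340420 counts in varenicline 1 to 27917715 in saline 4, and 3 counts, taken as the floor, corresponded to between 0.109 and 0.221 CPM, counts scaled to a common library size. Libraries stood apart in the makeup of the tissue before any cilium gene was considered. Markers of cortical excitatory neurons summed to between 119 and 455 CPM in varenicline 1 to 5, but to 1000 CPM in varenicline 6 and to between 638 and 1170 CPM in saline libraries. Choroid plexus markers were high in varenicline 1 (2900 CPM), varenicline 5 (3180 CPM), saline 2 (2930 CPM) and saline 5 (2400 CPM), and ran from 458 to 1400 CPM in the other libraries. Fewer cells of a type and less RNA per cell cannot be told apart in such bulk samples.

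The ependymal label was checked with 10 ependymal markers that the rule does not name, such as Ccdc153, Tmem212 and Rarres2. All 10 were detected and tested. Their summed level was lowest at 34.5, median 59.1 and highest at 90.7 CPM in varenicline libraries, against 40.7, 49.7 and 63.5 CPM in saline libraries. Each followed the mean of the cilium genes across the 12 libraries, with Pearson r between 0.65 for Calml4 and 0.89 for Rarres2, given as a description. A high r was not particular to them: among markers of subventricular neuroblasts and stem cells it ran from -0.30 for Nes to 0.88 for Cd24a. Among choroid plexus markers it ran from 0.30 for Kcnj13 to 0.58 for Clic6. Testis is another tissue rich in axonemal transcripts, which there build the sperm tail. Of 8 testis markers, 5 (Prm1, Tnp1, Tnp2, Smcp and Akap4) had 0 counts in all 12 libraries, Prm2 and Odf1 had 3 and 2 counts in total, and only Acr was tested. The label does not suit every gene equally: Cfap36 and Cfap20 were abundant and nearly even across libraries, as described below.

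No cilium gene passed the test between the groups. At an adjusted p of 0.05 in edgeR's quasi-likelihood F test with Benjamini-Hochberg adjustment, 0 of 45 were called, and the share called among all 15111 genes was also 0.0%. DESeq2 called 0 of those among the 45 for which it gave an adjusted p, against 3.33% of the 12181 such genes overall in the table. It gave none for Dnah7a, Spag16, Cfap221, Cfap126, Cfap45, Cfap52, Tekt1, Dnah17, Cfap70 and Rsph3b. The same held for Tekt4, Dnah8, Cfap53, Spag6l, Cfap61, Spag17, Cfap57 and Tekt2, so none of these could be called. At an unadjusted p under 0.05 in edgeR, 2 genes were higher with varenicline, Dnah2 and Dnah7a, and 0 were lower; over all genes 7.27% were higher and 9.64% lower at that level, so the 2 of 45 cilium genes were no more than the background share. The direction and the genes at that level changed with the libraries and the tool. Without varenicline 1, 0 were higher and 2 lower, Cfap45 and Spag6l, and DESeq2 gave 1 higher, Dnah2, and 1 lower, Spag6l. Over all genes, 931 were higher and 1332 lower at that level without varenicline 1, and 1179 higher and 1471 lower with DESeq2. No cilium gene had groups without overlap, against 0.754% of all genes.

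More estimates lay above 0 than below, and this balance changed with the libraries left out. Of the 45 genes, 35 had a log2 fold change above 0 and 10 below, with a median of 0.13, against a median of 0.01 over all genes. The spread between libraries was larger: the median log2 CPM of the 45 genes varied between libraries of a group with an SD of 0.38. Without varenicline 1 the genes divided into 23 above 0 and 22 below, and the median was 0.004. Without varenicline 6, 38 were above 0 and the median was 0.225. With both left out, a choice made after seeing the data, 30 were above 0 and 15 below, with a median of 0.098. With the cortical marker score as a covariate, 19 were above 0 and the median was -0.02. Cortical markers summed lower in varenicline 1 to 5 than in every saline library. Score and treatment can therefore hardly be told apart in that fit, here and in the values given with it below. Upper quartile factors or library totals in place of TMM gave 37 above 0. Over all genes the share above 0 was 52.3% with all libraries, 51.3% without varenicline 1, 52.1% without varenicline 6 and 51.7% without both. It was 49.2% with the cortical score, 54.0% with upper quartile factors and 57.4% with library totals.

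**Figure D1:**
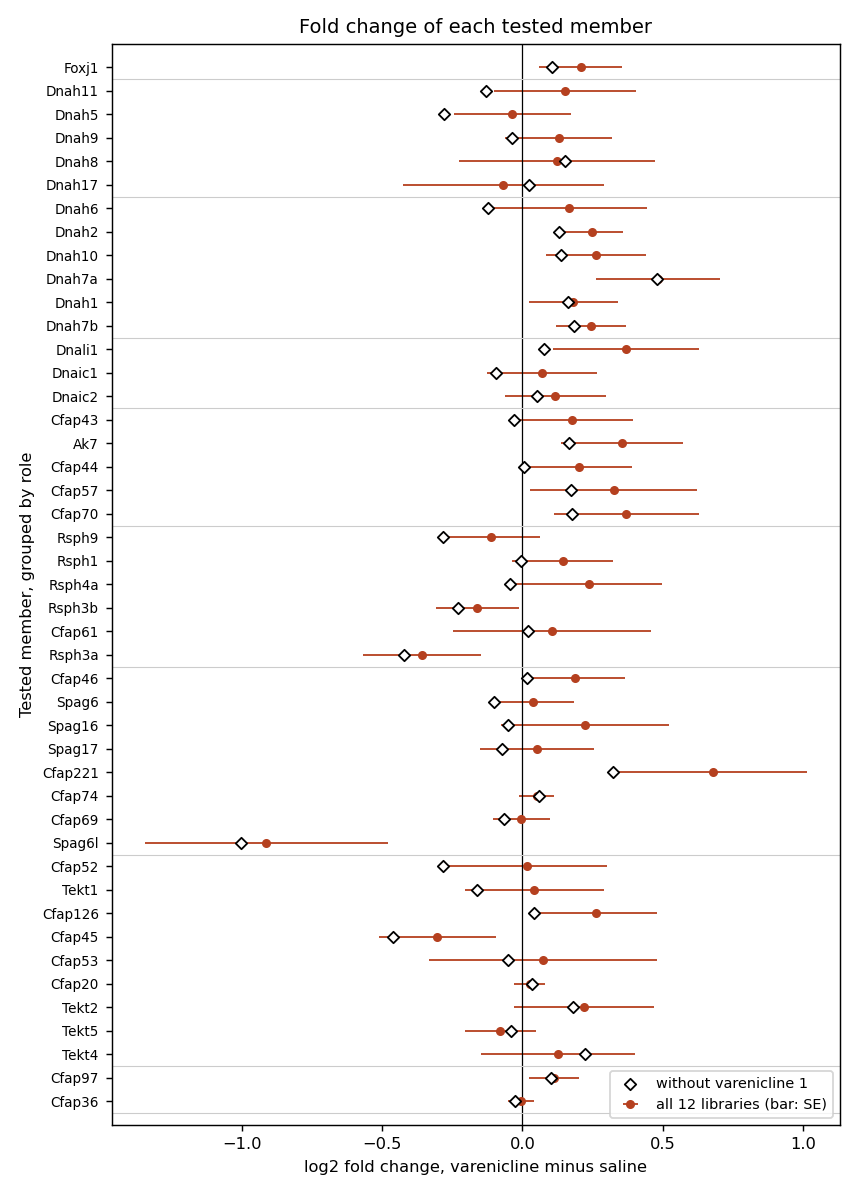
The log2 fold change of each tested gene, varenicline minus saline, is shown on the x axis, with genes grouped by role down the page. Filled circles use all 12 libraries with bars for the standard error, and open diamonds leave out varenicline 1. With all libraries 35 of 45 circles lie right of 0, and without varenicline 1 only 23 diamonds do.

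Foxj1 (chr11:116330704-116335354 on mm10, minus strand, 3 exons) stands at the head of the program. Its level was lowest at 18, median 23.3 and highest at 31.8 CPM in varenicline libraries, against 17.1, 18.7 and 30.0 CPM in saline libraries. Of the 6 varenicline libraries, 5 lay at 20.0 CPM or above and varenicline 6 at 18 CPM, while 5 of the 6 saline libraries lay at 19.6 CPM or below and saline 6 at 30.0 CPM. The groups thus overlapped through saline 6 and varenicline 6. The log2 fold change was 0.21 ± 0.15 (SE; adjusted p = 0.50). It was 0.11 without varenicline 1, 0.36 without saline 6 (adjusted p = 0.15), where it reached an unadjusted p under 0.05, and 0.04 with a score of cortical markers as a covariate. Per kilobase of exon its mean level over all libraries was 8.47 CPM, below Cfap36 and Cfap20 and above every other gene of the rule.

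The outer dynein arms set the beat frequency. In airway cilia their heavy chains are Dnah5, Dnah9 and Dnah11, while Dnah8 and Dnah17 serve the sperm tail. The ciliary chains were the better expressed ones, at 0.478, 0.593 and 0.380 CPM per kilobase for Dnah5, Dnah9 and Dnah11, whereas Dnah8 reached 0.045 and Dnah17 0.035. Dnah9 ranged from 5.75 over a median of 7.68 to 13.6 CPM in varenicline libraries, against 6.31, 7.5 and 9.79 CPM in saline libraries. Dnah5 ranged from 5.14 over 6.05 to 13.5 CPM in varenicline libraries, against 5.74, 7.53 and 8.96 CPM in saline libraries. In both genes varenicline 1 lay above every saline library and the remaining varenicline libraries lay within or below the saline range, apart from 1 value of 10.3 CPM for Dnah9 in varenicline 4. Their log2 fold changes were 0.13 ± 0.19 for Dnah9 and -0.04 ± 0.21 for Dnah5 (SE), and those of Dnah11, Dnah8 and Dnah17 lay between -0.07 and 0.15. Dnah11 changed sign without varenicline 1, at -0.13. The exons of Dnah11 overlap 642 bases of Cdca7l on the opposite strand, and those of Dnah17 overlap 93 bases of Pgs1, so without strand some of their reads cannot be assigned.

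The inner dynein arms shape the bend, and all 6 of their tested heavy chains had a fold change above 0, with a median of 0.25. Both genes that reached an unadjusted p under 0.05 were among them. Dnah2 (chr11:69420809-69549108, minus strand, 86 exons), a chain of the double-headed arm, had 9.53, 10.4 and 15.9 CPM (lowest, median and highest) in varenicline libraries, against 8.95, 9.39 and 9.79 CPM in saline libraries. Of the 6 varenicline libraries, 5 lay above all saline libraries and varenicline 6 lay within them, while varenicline 1 was far above the rest. The log2 fold change was 0.25 ± 0.11 (SE; adjusted p = 0.268), and 0.13 without varenicline 1. Dnah7a (chr1:53397002-53706784, minus strand, 66 exons), a single-headed arm chain, had 1.19, 1.66 and 2.59 CPM in varenicline libraries, against 0.89, 1.21 and 1.40 CPM in saline libraries. Its highest value was in varenicline 3, not varenicline 1, and the log2 fold change was 0.48 ± 0.22 (SE; adjusted p = 0.285). It was 0.48 without varenicline 1, 0.30 without varenicline 3, and 0.001 once the cortical score was in the fit. Mouse carries near copies of this gene, and 10.4% of the 150-base windows of Dnah7a and 11% of those of Dnah7b occur in another copy, so their counts are uncertain to that degree.

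Among the other inner arm chains, Dnah6 (chr6:73017607-73221631, minus strand, 77 exons) had one of the widest spreads. Its level was lowest at 4.17, median 11.9 and highest at 24.9 CPM in varenicline libraries, against 9.27, 10.5 and 15.1 CPM in saline libraries. Both extremes lay in the varenicline group, varenicline 1 above and varenicline 6 below every other library, and the highest value was 5.97 times the lowest. The log2 fold change of 0.17 ± 0.28 (SE; adjusted p = 0.803) was -0.12 without varenicline 1. Dnah1, the best expressed heavy chain at 1.83 CPM per kilobase, had 17.2, 26.1 and 32.4 CPM in varenicline libraries, against 17.6, 19.9 and 28.1 CPM in saline libraries. Dnah10, the partner of Dnah2 in the double-headed arm, and Dnah7b had log2 fold changes of 0.26 ± 0.18 and 0.24 ± 0.13 (SE), with overlapping groups.

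**Figure D2:**
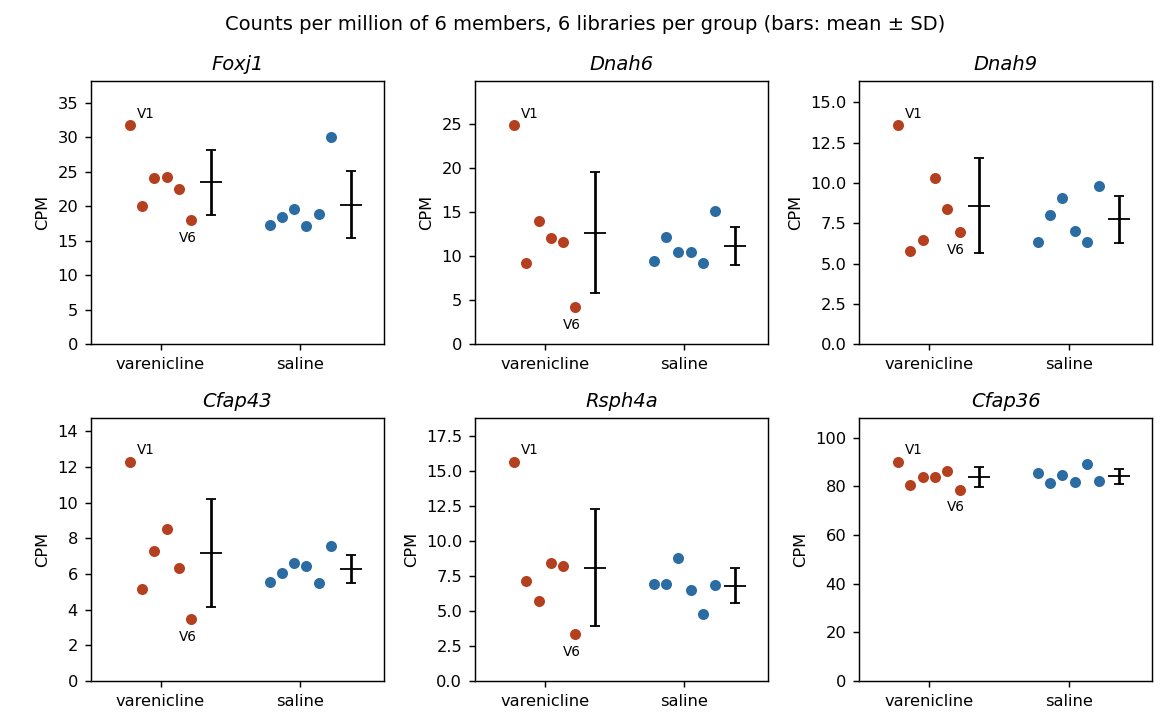
CPM is plotted for 6 genes on the y axes, with the 6 varenicline libraries on the left and the 6 saline libraries on the right of each panel. Bars are the mean ± SD, and V1 and V6 mark varenicline 1 and 6. In Dnah6, Cfap43 and Rsph4a the highest and the lowest of all 12 values are V1 and V6, whereas Cfap36 stays between 78.6 and 90.2 CPM.

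The smaller dynein chains also had groups that overlapped. Dnaic1 and Dnaic2 are the intermediate chains that anchor the outer arm, and Dnali1 is the light intermediate chain of inner arms. Dnali1 had 2.40, 4.55 and 10.6 CPM in varenicline libraries, against 3.60, 3.83 and 4.91 CPM in saline libraries. Varenicline 1 lay far above all saline libraries and varenicline 6 below all of them, so the log2 fold change of 0.37 ± 0.26 (SE; adjusted p = 0.488) was 0.08 without varenicline 1 and 0.06 with the cortical score. Dnaic1 averaged 5.96 ± 1.99 CPM with varenicline and 5.64 ± 1.07 CPM with saline, and Dnaic2 averaged 5.56 ± 1.01 CPM with varenicline and 5.09 ± 1.54 CPM with saline (SD, n = 6 each). The exons of Dnali1 and Dnaic1 overlap an opposite gene by 44 and 15 bases.

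Arm tethers and adaptors, taken as 1 role together with the adenylate kinase Ak7, had the highest median among the roles, 0.32. All 5 tested genes were above 0 and at their highest in varenicline 1. The highest fold changes of this role were those of Cfap70, 0.37 and 0.18 without varenicline 1, and Ak7. Cfap43 and Cfap44 form the tether of the double-headed inner arm. Cfap43 (chr19:47736857-47837361, minus strand, 38 exons) had 3.48, 6.80 and 12.3 CPM in varenicline libraries, against 5.5, 6.24 and 7.57 CPM in saline libraries. Ak7 (chr12:105705982-105782447, plus strand, 18 exons), which converts adenine nucleotides in the axoneme, had 5.88, 10.2 and 18.1 CPM in varenicline libraries, against 6.6, 8.13 and 12.3 CPM in saline libraries. In both genes the top and the bottom of all 12 values were varenicline 1 and varenicline 6. The log2 fold changes were 0.17 ± 0.22 for Cfap43, -0.03 without varenicline 1, and 0.35 ± 0.22 for Ak7 (SE), 0.16 without it. With the cortical score Ak7 stood at 0.02. Cfap44 and Cfap57 had the same 2 libraries at their extremes, and Cfap70, a part of the outer arm, was lowest in saline 6.

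Radial spokes link the doublets to the central pair, and their 6 tested genes were balanced, 3 above 0 and 3 below, with a median of -0.003. The spoke head proteins Rsph1, Rsph4a and Rsph9 were all highest in varenicline 1 and lowest in varenicline 6. Rsph4a had 3.37, 7.69 and 15.7 CPM in varenicline libraries, against 4.82, 6.91 and 8.79 CPM in saline libraries, with a log2 fold change of 0.24 ± 0.26 (SE) and -0.04 without varenicline 1. Rsph9 had 4.85, 6.19 and 10.9 CPM in varenicline libraries, against 5.44, 7.54 and 8.20 CPM in saline libraries, with a log2 fold change of -0.11 ± 0.17 (SE). Per kilobase, Rsph9 (7.51 CPM) and Rsph1 (5.37 CPM) were the most abundant spoke transcripts. The stalk protein has a pair of near copies in mouse, Rsph3a and Rsph3b, with log2 fold changes of -0.36 ± 0.21 (SE; adjusted p = 0.397) and -0.16 ± 0.15 (SE; adjusted p = 0.611). They share 52.6% and 59.4% of their 150-base windows with each other, so neither count can be taken as its own gene's. Cfap61, a protein of the spoke base, had only 174 counts in all libraries. Its row in the count table holds 7 exons and 1561 bases, whereas its longest GENCODE vM21 transcript has 3849 windows of 150 bases. The count thus covers only a part of that transcript.

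Central pair genes held both the highest and the lowest fold change of the 45. Cfap46 (chr7:139600915-139683815, minus strand, 59 exons), Cfap74 and Cfap221 build a projection of the central pair, and Spag6, Spag16, Spag17 and Cfap69 belong to the same apparatus. Cfap46 had 5.99, 9.69 and 15.6 CPM in varenicline libraries, against 7.77, 8.38 and 9.22 CPM in saline libraries, with the extremes again in varenicline 1 and 6. Cfap74 and Cfap69, the most abundant of them at 5.37 and 4.57 CPM per kilobase, were flat: Cfap74 averaged 25.5 ± 1.72 CPM with varenicline and 24.6 ± 1.31 CPM with saline (SD, n = 6 each). The log2 fold change of Cfap69 was -0.004 ± 0.101 (SE), with a sign that turned under other scalings. The exons of Cfap74 overlap those of 5830444B04Rik on the opposite strand by 453 bases.

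The highest was that of Cfap221. Its level was lowest at 0.81, median 0.95 and highest at 2.73 CPM in varenicline libraries, against 0.47, 0.74 and 1.13 CPM in saline libraries. Varenicline 1 alone lay above the saline range, and the log2 fold change of 0.68 ± 0.34 (SE; adjusted p = 0.317) was 0.32 without it. The lowest fold change, -0.91 ± 0.43 (SE; adjusted p = 0.301), belonged to the row called Spag6l (chr2:18699022-18749605, plus strand, 11 exons). Its level was 0.13, 0.53 and 1.2 CPM in varenicline libraries, against 0.47, 1.13 and 1.43 CPM in saline libraries. The groups overlapped, with varenicline 1 (0.74 CPM), varenicline 4 (0.65 CPM) and varenicline 6 (1.2 CPM) within the saline range, and the lowest varenicline library held 3 counts. With varenicline 1 and 6 both left out, an alternative chosen after seeing the data, this row alone of the 45 was called (log2 fold change -1.53, edgeR adjusted p = 0.0423), where 10.4% of all genes were called. With the cortical score as a covariate the log2 fold change was -0.09, and over all alternatives its adjusted p ran from 0.0423 to 0.998. Its exons overlap 117 bases of Gm3363 on the opposite strand. GENCODE vM21 names this locus Spag6 and names the row called Spag6 on chromosome 16 Spag6l, so the 2 names are exchanged between the table and that annotation. The chromosome 16 row was the better expressed one, at 3.50 against 0.480 CPM per kilobase, and had a log2 fold change of 0.04 ± 0.15 (SE).

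Tektins and the proteins of the doublet wall peaked in several libraries. Tekt1, Cfap52 and Cfap126 were highest in varenicline 1, whereas Tekt2 peaked in varenicline 3 and Tekt4 and Tekt5 in varenicline 5. Cfap52, a protein inside the doublet, had 1.14, 3.01 and 6.94 CPM in varenicline libraries, against 2.57, 3.44 and 3.67 CPM in saline libraries, and a log2 fold change of 0.02 ± 0.28 (SE). Tekt5 had 5.5, 6.36 and 8.69 CPM in varenicline libraries, against 5.85, 6.58 and 8.49 CPM in saline libraries. Cfap45, another protein of the doublet lumen, had a log2 fold change of -0.30 ± 0.21 (SE; adjusted p = 0.480), with its highest value in saline 6. Cfap53 had only 248 counts in total, 2 of them in varenicline 6.

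Cfap36 and Cfap20 were the most abundant and the most even of the cilium genes. Cfap36 (chr11:29221536-29247272, minus strand, 10 exons), which binds the small GTPase Arl3, and Cfap20, which seals the junction of the doublet, reached 55.2 and 30.5 CPM per kilobase, above every other gene of the rule. Cfap36 had 78.6, 84.0 and 90.2 CPM in varenicline libraries, against 81.5, 83.4 and 89.4 CPM in saline libraries, so its highest value was 1.15 times its lowest. Cfap20 had 36.7, 39.5 and 43.2 CPM in varenicline libraries, against 37.5, 39.2 and 40.7 CPM in saline libraries. For Cfap97 the log2 fold change was 0.11 ± 0.09 (SE), and varenicline 6, at 24.6 CPM, lay below all other libraries, which ran from 29.8 to 38.9 CPM. Its windows were shared with another gene to 5.84%.

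Among the genes that were not tested, Cfap58 had 81 counts over all libraries, Rsph14 76, Rsph6a 55 and Tekt3 31. Rsph14 and Cfap58, the nearest to the filter of those outside it, reached 10 counts in 2 libraries. Dnah17, just inside it, reached 10 counts in 7 libraries and had 135 counts in total.

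The pattern that ran through the cilium genes was between libraries rather than between groups. Varenicline 1 held the highest value of 29 of the 45 genes, and varenicline 6 the lowest of 21; over all tested genes these libraries held 12.3% of the highest and 8.96% of the lowest values. Relative to the mean of the saline libraries, the median cilium gene stood at 0.68 (log2) in varenicline 1 and at -0.33 in varenicline 6. In the other varenicline libraries it stood between -0.08 and 0.19, and in saline libraries between -0.08 and 0.22, with saline 6 at the top. The summed level of the tested genes was 585, 388, 468, 443, 455 and 351 CPM in varenicline 1 to 6, against 403, 416, 426, 398, 404 and 463 CPM in saline 1 to 6. Both the highest and the lowest sum thus lay in the varenicline group, and its other 4 libraries lay between 388 and 468 CPM.

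**Figure D3:**
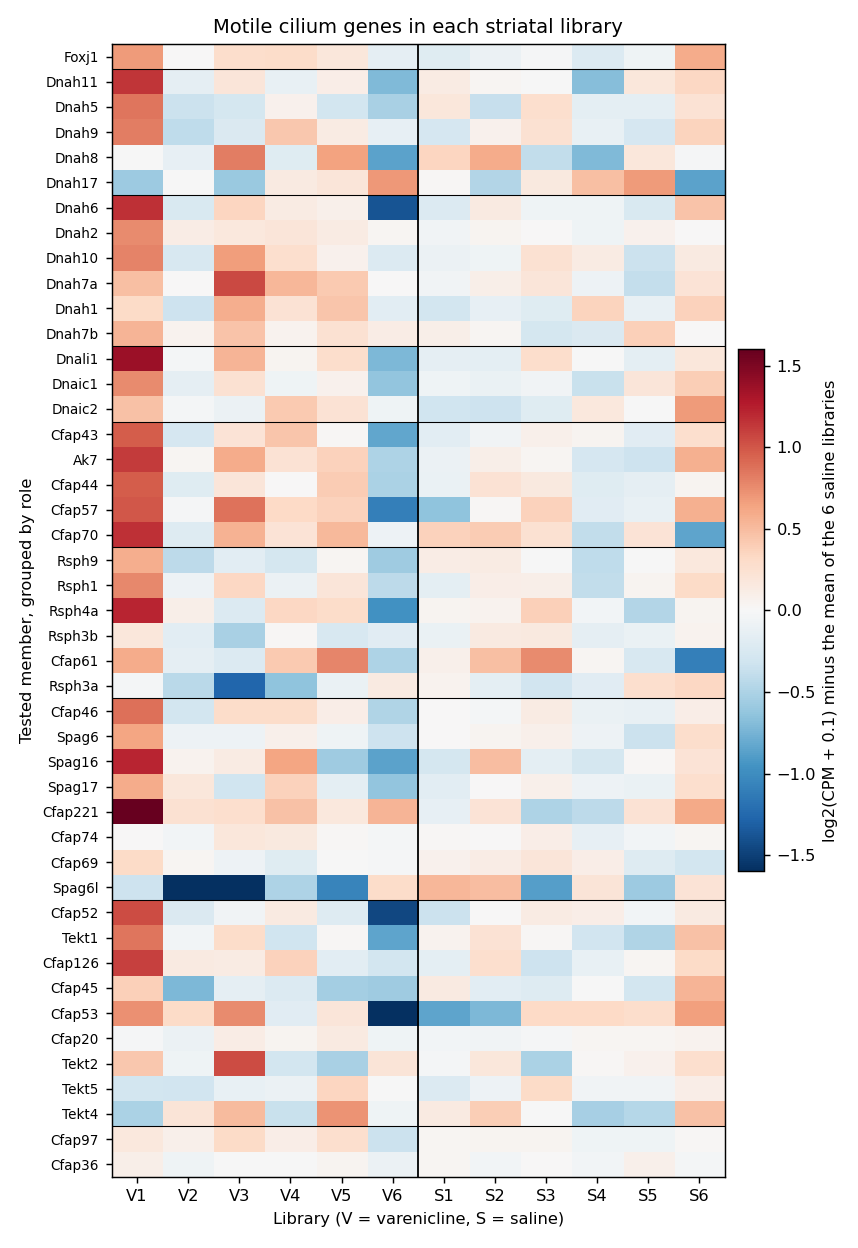
Each row is a tested gene, grouped by role, and each column a library, varenicline (V) on the left and saline (S) on the right. Colour gives log2(CPM + 0.1) minus the mean of the 6 saline libraries, red for higher and blue for lower, with the darkest shades covering anything beyond the ends of the scale. The V1 column is red for 38 of 45 genes and the V6 column blue for 37, while the S6 column is red for 39.

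The genes varied together once the group means were subtracted. The median Pearson correlation over the 990 pairs was 0.41 across 12 libraries (Spearman 0.37), and 80.8% of pairs were positive; among all tested genes the median was -0.0009 and 49.9% were positive. These are descriptions, and all points share the same libraries. Without varenicline 1 and 6 the median was 0.21 and 68.9% of pairs were positive. Of the 45, 25 had a median correlation with the others above 0.5 and 15 between 0 and 0.5. The 5 below 0 were Dnah17, Spag6l, Tekt4, Tekt5 and Rsph3a. Dnah6, Cfap43, Cfap46 and Ak7 were at the top, with medians of 0.74, 0.74, 0.73 and 0.70. They belong to different structures, an inner arm, an arm tether and the central pair, and to the nucleotide supply of the axoneme.

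The promoters of these 4 genes are shown because their levels had the highest median correlation with the other cilium genes, with that of Cfap36, the most even gene, for contrast. Each runs 5′ to 3′ from 250 bases before to 50 after the RefSeq start (build GRCm38.p6). Capitals mark GTTNCC or its reverse complement GGNAAC, an X-box half-site, and TGTTTAC or its reverse complement GTAAACA, a forkhead motif of the kind Foxj1 binds.
Dnah6, chr6:73221582-73221881, minus strand: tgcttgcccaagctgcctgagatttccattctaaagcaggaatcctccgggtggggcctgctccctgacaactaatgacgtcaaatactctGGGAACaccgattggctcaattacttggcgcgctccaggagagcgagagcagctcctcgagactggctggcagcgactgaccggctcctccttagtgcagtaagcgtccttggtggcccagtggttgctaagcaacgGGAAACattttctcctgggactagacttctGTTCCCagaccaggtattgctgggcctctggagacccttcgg
Cfap43, chr19:47837312-47837611, minus strand: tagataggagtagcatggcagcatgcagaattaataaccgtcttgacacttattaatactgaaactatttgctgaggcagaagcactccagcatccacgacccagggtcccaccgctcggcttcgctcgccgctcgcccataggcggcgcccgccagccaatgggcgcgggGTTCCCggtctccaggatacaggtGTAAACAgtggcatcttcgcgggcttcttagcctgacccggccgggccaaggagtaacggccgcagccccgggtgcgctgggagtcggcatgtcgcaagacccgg
Cfap46, chr7:139683766-139684065, minus strand: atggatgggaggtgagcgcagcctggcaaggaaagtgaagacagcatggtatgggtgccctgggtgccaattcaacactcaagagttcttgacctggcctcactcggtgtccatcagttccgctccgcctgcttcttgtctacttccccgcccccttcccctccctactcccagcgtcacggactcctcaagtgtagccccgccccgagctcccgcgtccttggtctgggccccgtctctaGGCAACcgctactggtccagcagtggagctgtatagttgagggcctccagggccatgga
Ak7, chr12:105705732-105706031, plus strand: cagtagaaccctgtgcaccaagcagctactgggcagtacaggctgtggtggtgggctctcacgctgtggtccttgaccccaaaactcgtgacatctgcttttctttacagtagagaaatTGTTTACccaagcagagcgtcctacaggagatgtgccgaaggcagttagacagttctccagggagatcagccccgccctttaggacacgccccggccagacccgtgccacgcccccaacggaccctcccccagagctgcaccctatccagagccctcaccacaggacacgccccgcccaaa
Cfap36, chr11:29247223-29247522, minus strand: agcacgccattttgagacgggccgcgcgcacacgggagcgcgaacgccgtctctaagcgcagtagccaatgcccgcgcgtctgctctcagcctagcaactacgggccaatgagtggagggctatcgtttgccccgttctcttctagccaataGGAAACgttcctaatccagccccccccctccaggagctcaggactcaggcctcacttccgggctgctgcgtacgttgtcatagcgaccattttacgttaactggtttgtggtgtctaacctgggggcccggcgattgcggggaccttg
Dnah6 held 3 half-sites and no forkhead motif, Cfap43 held 1 of each, Cfap46 held 1 half-site, Ak7 held 1 forkhead motif alone, and Cfap36 held 1 half-site.

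Across the cilium genes, 44 had a RefSeq promoter entry. Of these entries, 36 had the same start as the count table and 41 a start within 250 bases of it. For Cfap221, Tekt1 and Cfap57 the 2 starts lay 2022, 560 and 380 bases apart, so their windows do not hold the start of the counted row. GTTNCC was found on either strand in 32 of the 44 (72.7%), against 45.3% of 32851 promoters of the same length. The stricter GTTGCC, 1 of the forms of GTTNCC, was found in 15 (34.1%), against 12.5% of promoters. The forkhead motif TGTTTAC was found in 5 (11.4%), against 3.65%. A pair of half-sites of these letters, GTTNCC and then GGNAAC across 0 to 3 bases, was found in 0 of 44, against 0.804% of promoters. Looser forms of the X-box were not searched, so neither the marks nor these counts cover them. A match describes letters in these windows and is not a bound site, and a window without one says nothing of either factor.

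The 10 genes outside the rule whose levels followed the cilium genes most closely were ranked by Pearson r with the mean standardised log2 CPM of the 45 genes over 12 libraries. They were Ankrd66 (0.96), Trp73 (0.95), Ubxn10 (0.94), Ttc16 (0.94), Lrrc23 (0.94), Ccdc162 (0.92), Ccdc108 (0.92), Ttc21a (0.92), Tppp3 (0.91) and Cald1 (0.91). Without varenicline 1 and 6 their r ran from 0.66 to 0.93. Trp73 is a transcription factor of multiciliated cells that acts on Foxj1, and Lrrc23 is a radial spoke protein. Trp73 had 1.26, 2.46 and 5.02 CPM in varenicline libraries, against 1.67, 2.07 and 2.56 CPM in saline libraries. All 10 genes were highest in varenicline 1 and 8 were lowest in varenicline 6, which follows largely from choosing them by likeness to the cilium genes. The log2 fold changes of all 10 lay between 0.05 and 0.44 and none was called in edgeR.

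Other parts of the ciliary program were read from lists, and no gene of any list was called at an adjusted p of 0.05 in edgeR. Dynein arm assembly and docking factors, which build the arms in the cytoplasm and fix them to the doublet, had 13 tested genes, 10 above 0 and 3 below, with a median log2 fold change of 0.11 and none at an unadjusted p under 0.05. The nexin-dynein regulatory complex with the ruler proteins Ccdc39 and Ccdc40 had 7 above and 5 below, and a median of 0.04. Without varenicline 1 those medians were 0.02 and -0.11. Of 26 further axonemal genes, 21 were above 0 and 5 below, with a median of 0.19 and of 0.03 without varenicline 1. At an unadjusted p under 0.05, 3 of them were higher, the kinase Stk33, the cilium tip protein Sntn and Efhc2. Stk33 had 1.45, 1.64 and 1.92 CPM in varenicline libraries, against 0.60, 1.15 and 1.57 CPM in saline libraries (log2 fold change 0.61 ± 0.22, SE; adjusted p = 0.193). The groups overlapped only at their edges in Stk33, and without varenicline 1 the value was 0.57.

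Among 13 tested regulators of multiciliated cells, 9 were above 0 and 4 below, with a median of 0.25 and of 0.12 without varenicline 1. Ccno and E2f5, which drive the making of basal bodies, had an unadjusted p under 0.05. Ccno had 2.58, 3.55 and 4.86 CPM in varenicline libraries, against 1.90, 2.42 and 3.41 CPM in saline libraries, with a log2 fold change of 0.50 ± 0.19 (SE; adjusted p = 0.196). With the cortical score it was 0.13. Its lowest varenicline value, 2.58 CPM, was in varenicline 1, and its r with the mean of the cilium genes was -0.02.

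Intraflagellar transport serves primary cilia too, which neurons carry, and 5 of its 25 tested genes were highest in varenicline 1 and 9 lowest in varenicline 6. Of the 25, 7 were above 0 and 18 below, with a median of -0.03 and summed levels of 1170 to 1250 CPM in varenicline libraries and 1190 to 1260 CPM in saline libraries. Ift52 had the smallest p among the cilium genes and the genes of the ciliary lists. It had 32.9, 34.5 and 36.9 CPM in varenicline libraries, against 29.3, 29.9 and 32.7 CPM in saline libraries, with a log2 fold change of 0.20 ± 0.05 (SE; adjusted p = 0.138). The groups of Ift52 did not overlap, as in 0.754% of all genes. DESeq2 gave it an adjusted p of 0.0251, and over all alternatives its adjusted p ran from 0.00903 to 0.998. Ift20, Ift46 and Kif3b had log2 fold changes of -0.16 ± 0.06, -0.14 ± 0.06 and -0.13 ± 0.06 (SE), also at an unadjusted p under 0.05, and no other gene of this list reached that level.

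Cell type markers are given beside these values. The 10 ependymal markers outside the rule all had a fold change above 0, with a median of 0.31 and of 0.17 without varenicline 1. Their sum was highest in varenicline 1 and lowest in varenicline 6, as for the cilium genes, and only Fam183b had an unadjusted p under 0.05 (log2 fold change 0.52 ± 0.22, SE; adjusted p = 0.249). All 12 choroid plexus markers were above 0, with a median of 0.36 and of 0.02 without varenicline 1. The 4 libraries high in choroid plexus markers, varenicline 1, varenicline 5, saline 2 and saline 5, had cilium gene sums of 585, 455, 416 and 404 CPM. With the choroid score as a covariate 33 of 45 cilium genes were above 0.

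All 10 cortical markers were below 0 with a median of -1.10, 9 of them at an unadjusted p under 0.05, and varenicline 6, the lowest in cilium genes, was the varenicline library at the cortical level of saline libraries. Septal and pallidal markers summed to 192 CPM in varenicline 1 and 3 and to between 105 and 124 CPM in the other varenicline libraries, against 91.5 to 120 CPM in saline libraries. Of these 12 markers 11 were above 0, 9 of them at an unadjusted p under 0.05, with a median log2 fold change of 0.64 and of 0.44 without varenicline 1. Striatal projection neuron markers summed to 7780 CPM in varenicline 6 and 9760 to 12600 CPM in the other varenicline libraries, against 7230 to 11400 CPM in saline libraries. All 12 striatal markers were above 0, 5 of them at an unadjusted p under 0.05, with a median of 0.20. Markers of subventricular neuroblasts and stem cells, neighbours of the ependyma, summed to 502 CPM in varenicline 1 and 398 to 417 CPM in the other varenicline libraries, against 376 to 483 CPM in saline libraries. Of these 12 subventricular markers 11 were above 0, with a median of 0.27 and of 0.16 without varenicline 1. At an unadjusted p under 0.05, 2 were higher and 1 lower. Astrocyte markers ran from 6200 to 6900 CPM in varenicline libraries and from 6020 to 6500 CPM in saline libraries. Of the 10 astrocyte markers 9 were above 0, 3 of them at an unadjusted p under 0.05, with a median of 0.06. The part of dissection, or of the depth of varenicline 1, the shallowest library, in the levels of the cilium genes was not tested.

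**Figure D4:**
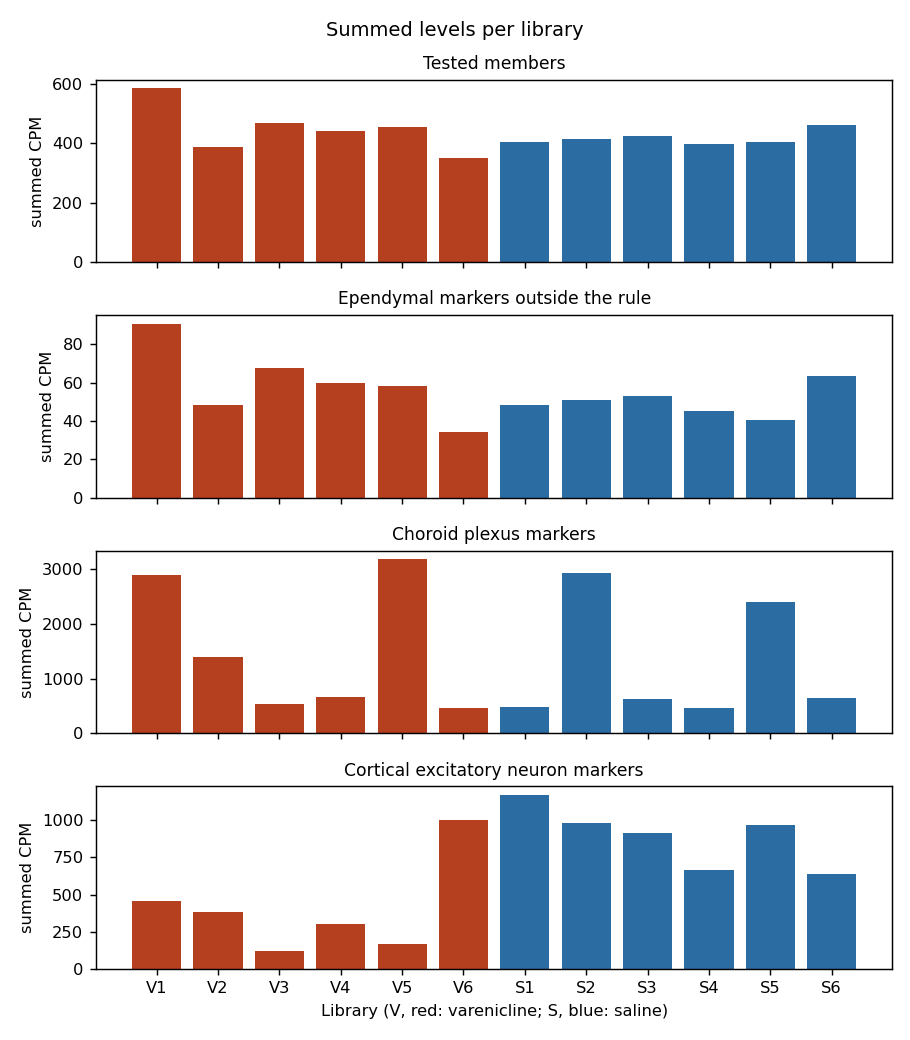
Summed CPM per library for the 45 tested cilium genes, the 10 ependymal markers outside the rule, the 12 choroid plexus markers and the 10 cortical markers, with varenicline libraries in red on the left and saline libraries in blue on the right. The first 2 panels share their highest bar, V1, and their lowest, V6, while the choroid plexus bars are tall in V1, V5, S2 and S5 and the cortical bars low in V1 to V5.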

How the data were processed

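RNA from bilateral striatum was sequenced in 12 libraries, per the labels' protocols with the Illumina TruSeq RNA kit and single reads of 150 nt. The values tested are the deposited read counts per gene, whole and not normalized. FPKM values and Cuffnorm's scaled counts (a signal), both deposited too, served as alternatives. The submitters' processing notes name the build mm10, trimming by Trimmomatic with FastQC, alignment by TopHat2, counting by featureCounts, and also Cuffdiff, Cuffnorm and DESeq2; no version or annotation is stated. Exon lengths, another deposited column, and gene positions are those of the count table, per the file headers.

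Genes with at least 10 counts in 6 of the 12 libraries were tested with edgeR 4.0.16 (TMM, quasi-likelihood F test, Benjamini-Hochberg adjustment over all 15111 genes, threshold 0.05) in R 4.3.3. CPM values use TMM-scaled totals, and log2 CPM adds a prior count of 2. Levels are compared between genes only as CPM per kilobase of exon. The alternatives covered size factors, filters on low counts, DESeq2 1.42.0, limma 3.58.1 (voom with sample weights, and log2 of FPKM plus 1 or 0.1 or of the Cuffnorm signal plus 1), cortical and choroid plexus scores as covariates, and each library left out. Leaving out varenicline 1 and 6 together was added after seeing the data. The tests were tried on simulated data.

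Groups came from the treatment labels, which give no batch. The members, lists and tests were chosen with earlier results of these data known. The genes named are Foxj1, Ak7 and Dnali1, the most abundant of each role, those with the smallest p in each direction, those nearest the count filter, the 10 genes most alike, and the leading genes of each list; other members were named after their values were seen. Read sharing was checked by 150-base windows in GENCODE vM21 transcripts and by exon overlap in the count table. Counts of all 66 library pairs differed beyond sampling noise, with a chi-square per degree of freedom of at least 5.94. The floor of 3 counts covers counting error only, while SD and SE measure the spread between libraries.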

Additional observations from a re-analysis of the deposited data

Results flagged for a closer look

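Among 122 sets of 6 values, 1 per gene and group, 8 had 1 library far from the other 5 in log2 CPM; chance flags about 1 in 20 sets, or 6.1 here. In the varenicline group, Dnah2 stood high in varenicline 1 at 3.997, with the other 5 libraries between 3.27 and 3.44. Cfap221 also stood high in varenicline 1, at 1.498, with the others between -0.14 and 0.24. Cfap97 stood low in varenicline 6 at 4.63, with the others between 5.05 and 5.29, and so did Cfap53 at -2.27, from 2 counts, with the others between -0.26 and 0.68. Ift20 stood low in varenicline 3 at 4.65, with the others between 4.89 and 5.01. In the saline group, Foxj1 stood high in saline 6 at 4.91, with the others between 4.10 and 4.30. Rsph9 stood low in saline 4 at 2.47, with the others between 2.87 and 3.05, and Dnah11 stood low in the same library at 1.65, with the others between 2.32 and 2.67.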

How the results depend on the processing

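Direction and side of the threshold were kept in 1180 of the values recomputed for single genes under an alternative; 81 changed sign and 14 passed the threshold. The number of all genes differing was 0 as reported, but 406 with DESeq2, 2102 with limma-voom, 12 with the cortical score, and 1572 without both varenicline 1 and varenicline 6. With 1 library left out it ran from 0 to 1609, with 4 without varenicline 2 and 1609 without varenicline 6. Cilium genes differing were 0 under every alternative but 1, Spag6l, without both varenicline 1 and varenicline 6. At an unadjusted p under 0.05 they numbered 2 as reported, 8 with limma-voom, 0 with log2 FPKM plus 1, 1 each with log2 FPKM plus 0.1, Cuffnorm values, the cortical score or the choroid plexus score, and 4 without both libraries. With 1 library left out that number ran from 0 to 7, with 0 without saline 1 or saline 4 and 7 without varenicline 6. Over all 15111 genes, 1099 were higher and 1457 lower at that level as reported, and 1970 and 2368 with limma-voom. Without varenicline 6 they were 1706 and 2192, and without both libraries 1599 and 2153, so the count over all genes rose as well. Cilium genes with a fold change above 0 numbered 35 as reported, 19 with the cortical score and 30 without both libraries. With 1 library left out they ran from 23 without varenicline 1 to 38 without varenicline 6. Those whose groups did not overlap numbered 0 as reported and from 0 to 2 with 1 library left out, 2 without varenicline 6. The share over all genes is given only for all 12 libraries, 0.754%, so these counts have no like share beside them. The median pairwise correlation was 0.2099 without both libraries. The 14 that passed included Spag6l and concerned 5 other genes. Adjusted p of Ift52 was under 0.05 with DESeq2, limma-voom (0.00903), without varenicline 6 (0.0286) and without both libraries (0.0248). That of Ccno was 0.0388 with limma-voom and 0.0312 without both, and that of Kif3b 0.0274 and 0.0153. The cortical marker Slc17a7 passed with limma-voom (0.00224), without varenicline 6 (0.00341) and without both (0.0017), and the septal marker Zic4 without varenicline 6 (0.015) and without both (0.0305).

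With upper quartile factors the log2 fold change was 0.00202 for Cfap69 and 0.00124 for Cfap36, with library totals 0.0146 for both, and with limma-voom 0.00093 for Cfap36 and -0.00235 for Cfap52. On the deposited FPKM plus 1, Cfap69 stood at 0.0120, Dnah17 at 0.0091 and Cfap52 at -0.0353. With FPKM plus 0.1 they stood at 0.0143, 0.0428 and -0.110, and with Cuffnorm values at 0.0103, 0.0666 and -0.129. With the cortical score, values turned negative for Dnah1 (-0.254), Dnah6 (-0.264), Cfap74 (-0.0215), Spag6 (-1.63e-05), Cfap20 (-0.0870), Rsph1 (-0.0625), Cfap97 (-0.144), Dnaic1 (-0.163), Dnaic2 (-0.0156), Cfap43 (-0.112), Dnah10 (-0.0461), Ubxn10 (-0.162), Rarres2 (-0.0772), Cfap46 (-0.00318), Cfap52 (-0.256) and Dnah8 (-0.607), and positive for Cfap69 (0.0649), Rsph3a (0.0230), Dnah5 (0.0120) and Dnah17 (0.349). Ttr was -0.0781 and Cfap52 -0.0726 with the choroid plexus score. Without both libraries, Spag6 was -0.0486, Dnah9 -0.0126, Dnah11 -0.0115 and Cfap52 -0.0984. With 1 library left out, the genes that changed sign ranged as follows: Cfap36 from -0.0262 to 0.0180, Cfap43 from -0.0292 to 0.311, Cfap69 from -0.0660 to 0.0410, Dnah11 from -0.129 to 0.277, Dnah17 from -0.261 to 0.125, Dnah5 from -0.279 to 0.0440, Dnah6 from -0.122 to 0.341, and Dnah9 from -0.0386 to 0.225. Likewise Dnaic1 ranged from -0.0959 to 0.178, Rarres2 from -0.00573 to 0.280, Rsph1 from -0.00631 to 0.233, Spag6 from -0.102 to 0.105, Ttr from -0.209 to 1.06, Ubxn10 from -0.0849 to 0.255, Rsph4a from -0.0433 to 0.391, Cfap52 from -0.284 to 0.190, and Dnah8 from -0.110 to 0.300. The causes were not tested. Genes near 10 counts per library, such as Dnah17, Spag6l and Cfap53, are limited by depth.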
